A study of Mus musculus with 8 samples.

Results

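Caveolae are small flask-shaped pits of the plasma membrane, and the genes described here are the 6 mouse genes Cav1, Cav2, Cavin1, Cavin2, Cavin3 and Ehd2, which encode their coat and neck proteins. They were chosen by name, and all 6 had entries among the 3903 gene symbols of the table of cluster markers that the authors deposited. The cells were primary preadipocytes, the fibroblast-like precursors of fat cells, cultured from the inguinal white fat of C57BL/6 wild-type (WT) mice and of double knockout (DKO) mice that carry Hmgn1-/- and Hmgn2-/- in every tissue. HMGN1 and HMGN2 are nuclear proteins that bind the nucleosomes of chromatin. Cells of each genotype were taken at day 0 and at day 6 of a browning protocol in which insulin, dexamethasone, isobutylmethylxanthine, triiodothyronine and rosiglitazone were given to both genotypes alike, followed by insulin and triiodothyronine. This gave 4 groups of 2, or 8 samples, each profiled by single-cell RNA sequencing of transcript 3' ends.

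The authors pooled the cells of the 8 samples, removed immune, glial and endothelial cells, sorted the rest into 12 clusters numbered 0 to 11, and compared each cluster with all other cells. Each entry of the table holds a log2 fold change of mean normalized expression and the percent of cells with the gene detected inside and outside the cluster. A gene has an entry only where it met the authors' minimums for fold change and detection. Among the entries the log2 fold change is at least 0.25 in absolute size, and the smallest detection on the better side is 10.1%. Where a gene misses the minimums the table is silent on it. Whether every gene that met them was listed is not known, so a missing entry need not mean a small difference. No value belongs to 1 sample, genotype or day. There is therefore no replicate behind any value below, no test or SD was possible, and neither DKO against WT nor day 6 against day 0 could be compared. The study gives targets for depth and cell number, but those reached behind the values are unknown here.

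Caveolins are hairpin-shaped membrane proteins that form the inner coat of the caveola, and the cavins are soluble proteins that assemble on it from the cytosol and bend the membrane. EHD2 is an ATPase that sits at the neck and holds the pit at the cell surface. Fat cells are among the cells richest in caveolae, where the pits have been linked to insulin signalling, fatty acid uptake and the buffering of membrane tension, and loss of CAV1 or CAVIN1 causes a shortage of body fat in mice and in people.

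The 6 genes lie at 5 places in the genome. In the mm10 build with GENCODE M21 annotation, all are protein-coding. Cav2 (chr6:17281185-17289115) and Cav1 (chr6:17306335-17341452) are neighbours on the plus strand of chromosome 6, with 17219 bases between their ends and no gene annotated wholly inside that gap. Cavin2 (chr1:51289126-51302960) is on the plus strand, and Cavin1 (chr11:100956733-100970887), Cavin3 (chr7:105480083-105482300) and Ehd2 (chr7:15946958-15967567) are on the minus strand. The antisense gene Gm15581 spans Cav1, Cav2 and the gap, Cavin2 overlaps the antisense gene 9330175M20Rik, and Cavin3 overlaps Gm45667. Each of these genes lies on the strand opposite to the caveola gene it overlaps. Whether the counting used strand is not given in the sources used here, so whether reads of such a pair were kept apart is not known.

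The sequences just upstream of the neighbours Cav1 and Cav2 and of Cavin2 are shown. Cav1 and Cavin2 had the closest patterns among those of the 6 genes that were listed in at least 5 clusters. Cav2, beside Cav1, had far fewer entries. They are RefSeq sequences of build GRCm38.p6, plus strand, the 250 bases that end just before the first listed start, read 5' to 3'. Capitals mark matches on either strand to the GC box (GGGCGG), to the CCAAT box (by its name), to the TATA box (TATAAA) and to the AP-1 motif (TGANTCA). The windows are chr6:17306085-17306334 for Cav1, chr6:17280935-17281184 for Cav2 and chr1:51288876-51289125 for Cavin2.
Cav1: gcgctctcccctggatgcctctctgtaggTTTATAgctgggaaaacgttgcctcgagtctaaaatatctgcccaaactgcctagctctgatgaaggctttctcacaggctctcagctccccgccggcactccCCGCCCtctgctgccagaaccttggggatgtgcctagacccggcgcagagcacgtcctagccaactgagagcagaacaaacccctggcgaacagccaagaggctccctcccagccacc
Cav2: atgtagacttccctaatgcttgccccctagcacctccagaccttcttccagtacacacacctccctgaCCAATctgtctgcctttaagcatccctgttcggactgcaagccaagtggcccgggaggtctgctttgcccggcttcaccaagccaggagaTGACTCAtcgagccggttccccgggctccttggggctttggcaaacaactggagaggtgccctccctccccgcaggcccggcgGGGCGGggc
Cavin2: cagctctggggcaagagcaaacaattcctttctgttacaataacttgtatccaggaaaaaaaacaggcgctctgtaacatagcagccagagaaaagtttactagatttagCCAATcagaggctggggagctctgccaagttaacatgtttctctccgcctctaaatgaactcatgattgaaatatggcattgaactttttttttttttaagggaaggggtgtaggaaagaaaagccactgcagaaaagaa
The window of Cav1 held 1 GC box and 1 TATA match, that of Cav2 a GC box, a CCAAT and an AP-1 match, and that of Cavin2 a single CCAAT. The neighbours Cav1 and Cav2 had GC contents of 59.6% and 62%, against 40.4% for Cavin2 and a median of 52.4% over the 32851 windows of all genes. Of all those windows, 32.7% held the GC box, 33.8% CCAAT, 12.4% the TATA box and 6.75% the AP-1 motif. The PPAR hexamer AGGTCA, found in 14.0% of all windows, and the C/EBP palindrome TTGCGCAA, found in 0.164%, were in none of the windows of the 5 members in the promoter table, which are Cav1, Cav2, Cavin1, Cavin2 and Ehd2. PPAR and C/EBP are transcription factors of fat cell differentiation.

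Of the 72 combinations of 6 genes and 12 clusters, 28 had an entry and 44 did not. Of the 28, 17 were higher in the cluster and 11 lower. The higher share was 60.7%, against 47.1% over all 13337 entries. The authors' adjusted p, computed over single cells, was below 0.05 in 12 member entries (42.9%, 8 higher and 4 lower), against 56.1% over all entries, so the caveola genes did not stand out by that count. Entries were unevenly divided: Cav1 had 8, Cavin3 6, Cavin2 5, Cavin1 4, Ehd2 3 and Cav2 2. Cluster 9 alone listed none of them.

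**Figure D1:**
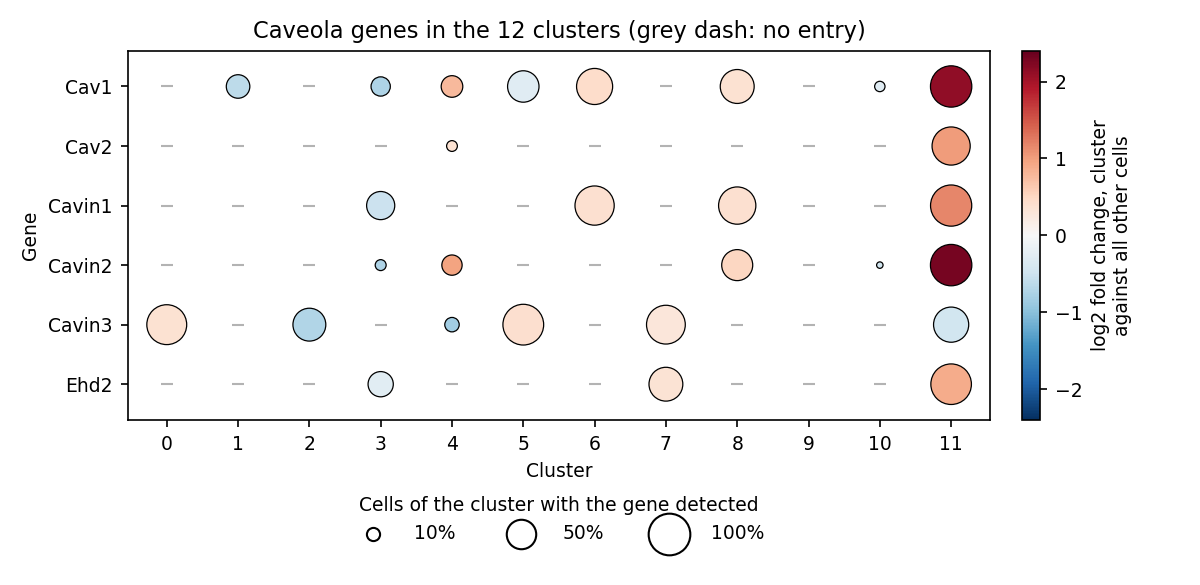
Deposited entries of the 6 caveola genes (rows) in the 12 clusters (columns). Colour is the log2 fold change of the cluster against all other cells, circle area the percent of the cluster's cells with the gene detected, and a grey dash a missing entry. All genes but Cavin3 were highest in cluster 11, where the log2 fold changes ran from 0.90 for Ehd2 to 2.29 for Cavin2, while Cavin3 was lower there at -0.46.

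Cluster 11, the smallest cluster with an estimated 1.5% of all cells, held the highest entry of 5 of the 6 genes. Of the 6 genes, 5 were higher and 1 lower there, whereas of all 3903 symbols 25.6% were listed as higher in cluster 11 and 38.1% as lower. The median log2 fold change of the 6 genes was 1.09, against -0.30 over all 2487 genes listed for that cluster. All 10 genes of an adipocyte marker list were listed as higher there too (median log2 fold change 2.41), and all 8 genes of a contractile list as lower (median -2.68). Markers of endothelial cells and pericytes, which are also rich in caveolae, were looked up in the whole table. None of 5 endothelial markers (Pecam1, Cdh5, Kdr, Tek, Emcn), which belong to cells the authors had removed, and 1 of 5 pericyte markers had an entry in any cluster. The pericyte exception was Abcc9, a potassium channel subunit listed for cluster 7 only. Smooth muscle is rich in caveolae too, and its contractile genes, 8 of 8 on the list, did have entries, 33 higher and 47 lower over all clusters. The receptor gene Pdgfrb, which pericytes share with preadipocytes, was lower in cluster 11 at -1.26 (named after its values had been seen).

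**Figure D2:**
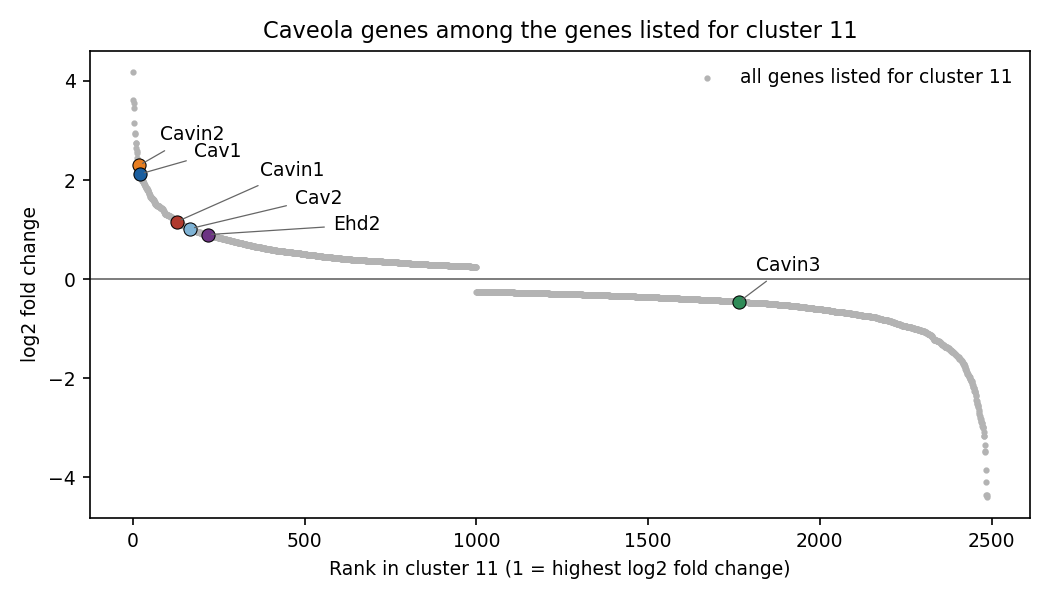
All 2487 genes listed for cluster 11, ordered by log2 fold change (vertical axis) from the highest (rank 1, horizontal axis), with the 6 caveola genes coloured. Cavin2 was at rank 18, Cav1 at 22, Cavin1 at 129, Cav2 at 168 and Ehd2 at 218, and Cavin3 was among the lower genes at rank 1765.

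Among the caveolins, Cav1 encodes the main coat protein, without which non-muscle cells form no caveolae. Detection of Cav1 reached 98.4% in cluster 11 against 45.3% in all other cells, and the deposited log2 fold change was 2.13. Detection means that at least 1 transcript was counted for a cell, and RNA free in the suspension counts too. No cluster was known to lack the caveola genes, so no background share could be given. Fabp4, an abundant adipocyte gene looked up after its values had been seen, was detected in 52.6% to 59.9% of the cells of clusters 0, 1, 3 and 5, where its log2 fold changes were between -3.79 and -4.59. Other adipocyte list genes varied widely in these clusters. Plin1 was detected in 0.6% to 1.9% of their cells and Cd36 in 1% to 2.5%. Scd1 was detected in 39.7% to 52% and Lpl in 88.4% to 98.5%. The part of free RNA in these values was not tested. Divided by the ratio of the detection percents, the fold of Cav1 leaves a mean per detecting cell that was at least 2.01-fold higher in cluster 11 than elsewhere. This bound rests on the pseudocount of 1 that Seurat adds to both means by default. The same pseudocount puts the mean of Cav1 in cluster 11 at no less than 3.36 per 10000 transcripts of a cell.

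Cav1 was also higher in clusters 4, 6 and 8. In cluster 6, whose higher genes included all 8 of a proliferation list, it was detected in 75% of cells against 43.8% outside, with a log2 fold change of 0.44. In cluster 8 detection was 66.3% against 44.8% and the log2 fold change 0.36. Both entries missed the adjusted p of 0.05. The 2 measures parted in cluster 4: fewer cells had Cav1 than elsewhere, 26.9% against 48.1%, yet the log2 fold change was 0.77, so the mean per detecting cell was at least 3.06-fold higher. Cluster 4 was a cluster of low detection throughout, with a median over its listed genes of 10.8% inside against 63.0% outside. The counts had been scaled to the same total in every cell, so each transcript weighs more in a cell with few transcripts. The part of this scaling in the cluster 4 means per detecting cell, of Cav1 here and of Cav2 and Cavin2 below, was not tested.

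Cav1 was lower in clusters 1, 3, 5 and 10. The lowest log2 fold change, -0.74, was in cluster 3, where 21.4% of cells had it against 49% outside, followed by -0.62 in cluster 1, with 31.9% against 48.4%. In cluster 10 only 6.2% of cells had Cav1, against 47.4% outside, with a log2 fold change of -0.29. Cluster 10 shared the low detection of cluster 4, at a median of 8.1% against 62.4%, but its Cav1 fold change had the opposite sign. In cluster 5 the measures parted the other way: 56.9% of cells had Cav1 against 45.1%, while the log2 fold change was -0.30, so the mean per detecting cell was at most 0.644 of that elsewhere. Such an entry was common in cluster 5, where 137 of the 286 genes listed as lower were detected in more cells than outside.

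Where Cav1 had an entry, its direction was that of most adipocyte genes listed. The clusters that listed Cav1 as higher, 4, 6, 8 and 11, had 10, 4, 7 and 10 adipocyte genes higher and 0, 1, 0 and 0 lower. Clusters 1, 3, 5 and 10, which listed Cav1 as lower, had 0, 1, 0 and 0 adipocyte genes higher and 9, 7, 8 and 8 lower. Of all 3903 symbols, 544, 706, 369 and 999 were listed as higher in clusters 4, 6, 8 and 11. Listed as lower in clusters 1, 3, 5 and 10 were 279, 180, 286 and 477 of them. The clusters with no Cav1 entry were 0, 2, 7 and 9, an estimated 38.9% of all cells, and had 0, 0, 1 and 0 adipocyte genes higher and 8, 5, 2 and 5 lower. Their combined Cav1 detection was 52.8%, above that of all cells, and their combined mean, with the pseudocount added, was 0.898 of that of all cells. Over all cells Cav1 was detected in 46.1%, and cluster 11 held 3.20% of the Cav1-detecting cells. That share is bounded by the small size of the cluster.

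Cav2 encodes the partner of CAV1 in the coat, which needs CAV1 to reach the cell surface. It had the lowest detection of the 6 genes over all cells, 15.4%, and entries in 2 clusters only. In cluster 11 it was detected in 83.8% of cells against 14.3% outside, a gain of 69.5 percentage points, and the log2 fold change was 1.02. This gain in detection was larger than the 53.1 points of Cav1, whose detection outside the cluster was already far higher, although the log2 fold change of Cav2 was the smaller. In cluster 4 the log2 fold change was 0.37 with 6.7% of cells against 16.3%, and the mean per detecting cell was at least 3.14-fold higher. Cluster 11 held 8.19% of the cells with Cav2 detected, more than for any other of the 6 genes in that cluster. In the 10 clusters with no Cav2 entry, combined detection was 15.1% and the combined level 0.956 of that of all cells.

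**Figure D3:**
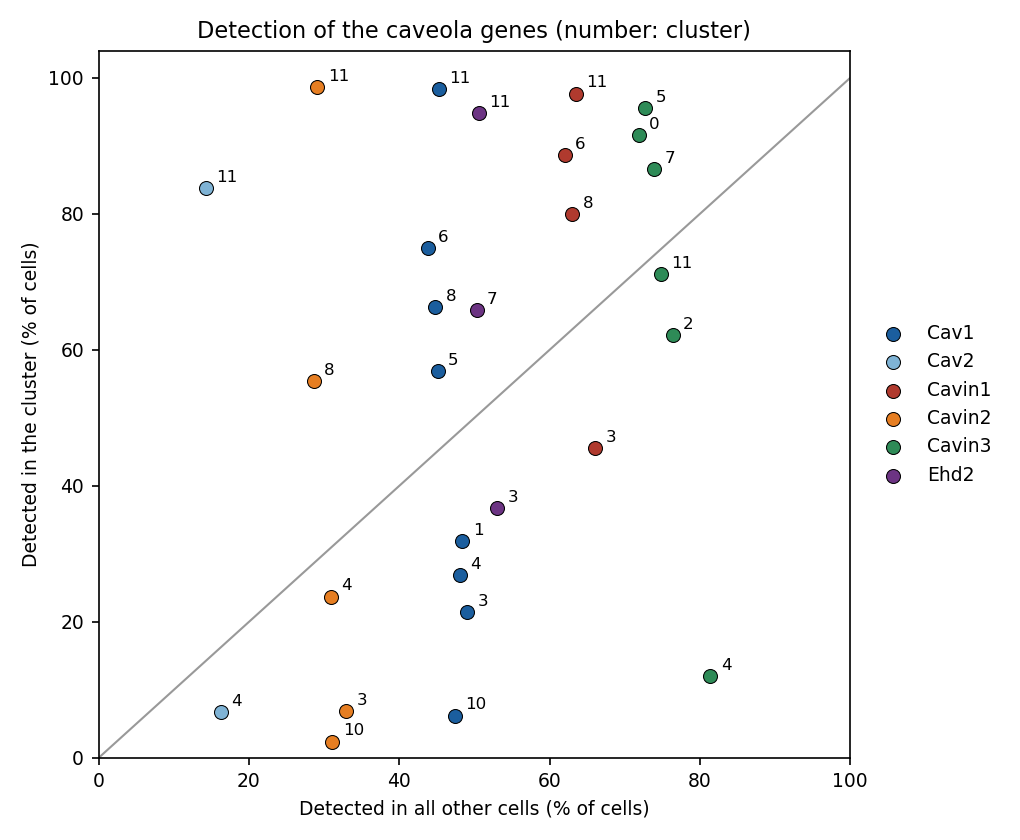
Percent of cells with each caveola gene detected inside a cluster (vertical axis) against all other cells (horizontal axis), 1 point for each of the 28 entries, with the cluster's number beside it and a line of equality. In cluster 11 detection was between 83.8% and 98.7% for all genes but Cavin3 (71.2%), and the cluster 4 points all lie below the line.

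Among the cavins, Cavin1 encodes the scaffold that every caveola needs, also known as polymerase I and transcript release factor. It was already widespread, detected in 64.0% of all cells. In cluster 11 detection was 97.7% against 63.5% outside, with a log2 fold change of 1.16 and a mean per detecting cell at least 1.46-fold higher. Clusters 6 and 8 listed it as higher as well, both at 0.38, with detection of 88.6% against 62% in cluster 6 and 80% against 63% in cluster 8. Only cluster 3 listed it as lower, with 45.6% against 66.1% and a log2 fold change of -0.51. Every cluster with a Cavin1 entry also had a Cav1 entry, and the directions were the same in all 4.

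Cavin2 encodes a cavin that binds phosphatidylserine and shapes the caveola. It had the largest fold change of the 6 genes: in cluster 11 the log2 fold change was 2.29, with detection in 98.7% of cells against 29.1%. The mean per detecting cell was at least 1.45-fold higher and the mean no less than 3.91 per 10000 transcripts. Detection was higher in cluster 11 for many genes, with a median over its listed genes of 66.4% inside against 48.7% outside, and the part of this in the Cavin2 values was not tested. In cluster 4 the log2 fold change was 0.97, although detection was 23.7% against 30.9%, and the mean per detecting cell was at least 2.55-fold higher. Cluster 8 followed at 0.51, with 55.4% of cells against 28.6%.

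Cavin2 was lower in cluster 3, at -0.73 with 6.9% of cells against 32.9%, and in cluster 10, at -0.45 with 2.4% against 31.1%. In both clusters Cavin2 was close to undetected. Detection was low throughout in cluster 10, however, at a median over its listed genes of 8.1% against 62.4%. All 5 clusters that listed Cavin2 also listed Cav1, each time in the same direction. The 7 clusters without a Cavin2 entry, 69.3% of all cells, had a combined detection of 32.2% and a combined level of 0.847 of that of all cells. As for Cav1, the level in cluster 11 stood far above that of the clusters without an entry.

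Cavin3 encodes the cavin also known as the protein kinase C delta binding protein, which links caveolae to kinase signalling. By fold change it mostly ran against the others. It was the most widely detected of the 6 genes, in 74.7% of all cells. In cluster 11 detection was 71.2% against 74.8% outside and the log2 fold change -0.46, and the mean per detecting cell was at most 0.766 of that elsewhere. Cluster 4 had its lowest value, -0.84, with detection in 12% of cells against 81.4%, a loss of 69.4 points. Cluster 2 came next at -0.72, with 62.2% against 76.4% and a mean per detecting cell of at most 0.744 of that elsewhere. Of these 3 lower entries, only that of cluster 4, where detection was low for most listed genes, had an adjusted p below 0.05.

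Cavin3 was higher in cluster 5 (log2 fold change 0.40), cluster 0 (0.37) and cluster 7 (0.30). None of the 3 entries passed the adjusted p. Detection was 95.6% against 72.7% in cluster 5, 91.6% against 71.9% in cluster 0 and 86.6% against 73.9% in cluster 7. No other caveola gene was listed for cluster 0 or cluster 2. Contractile genes were higher in all 3 clusters with higher Cavin3, by 7 of 8 in clusters 0 and 5 and 3 of 8 in cluster 7, with 0 lower, and all 8 were lower in clusters 2, 4 and 11, where Cavin3 was lower. Of all 3903 symbols, 486, 771 and 378 were listed as higher in clusters 0, 5 and 7. Listed as lower in clusters 2, 4 and 11 were 778, 1528 and 1488 of them. Contractile genes were also higher in clusters 1, 9 and 10 and lower in clusters 3, 6 and 8, which had no Cavin3 entry. Those 6 clusters, 47.0% of all cells, had a combined Cavin3 detection of 80.1% and a level of 1.03 relative to all cells.

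Cav1 and Cavin3 were listed together in 3 clusters, 4, 5 and 11, with opposite directions of the fold change in each. By detection, both were lower in cluster 4 and both higher in cluster 5. Only cluster 11 was opposite by both measures, with Cavin3 detected in 71.2% of cells against 74.8%. The fold change of Cavin3 was also opposite to those of Cavin2 and Cav2 in both clusters they shared, 4 and 11. In cluster 4 all 3 were detected in fewer cells than outside. To Cavin1 it was opposite in the single cluster they shared, 11. With Ehd2, Cavin3 shared clusters 7 and 11, with the same direction in cluster 7. The opposition was thus a matter of the fold change in few clusters, since a gene without an entry in a cluster has no known direction there.

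**Figure D4:**
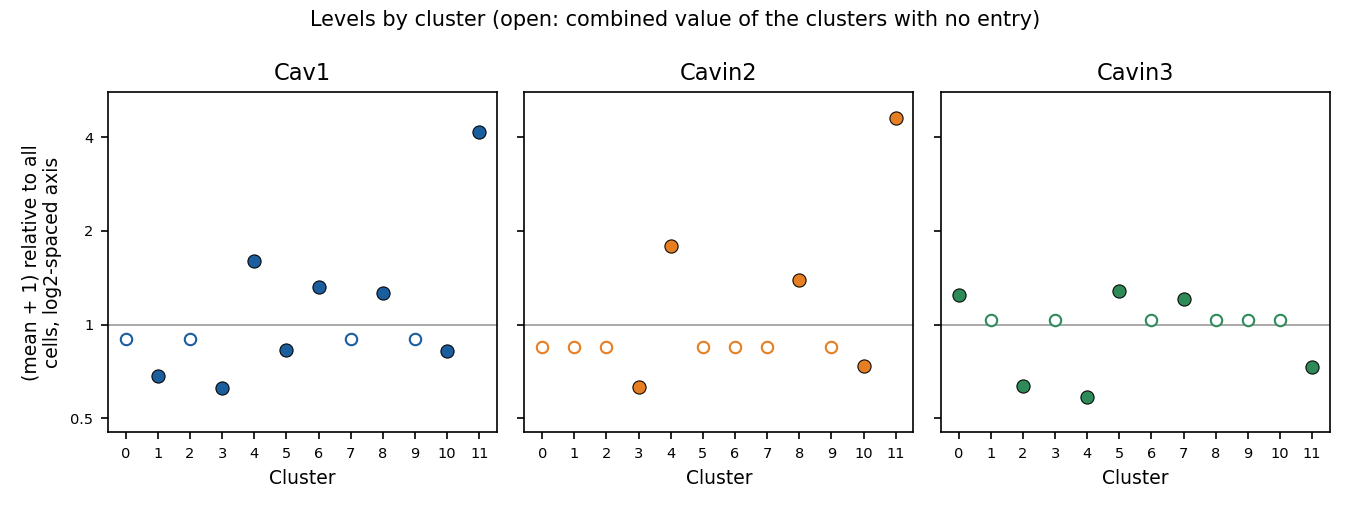
Mean normalized expression plus the pseudocount of 1, relative to the same quantity over all cells, for Cav1, Cavin2 and Cavin3 in the 12 clusters, on a log2-spaced axis. Filled circles were computed from an entry and the cluster's share of cells, and open circles show the 1 combined value of all clusters with no entry for that gene. Cav1 and Cavin2 reached 4.15 and 4.63 in cluster 11, where Cavin3 was at 0.732, and Cavin3 was lowest in cluster 4 at 0.584.

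Ehd2, the gene of the neck ATPase, was detected in 51.3% of all cells and had 3 entries. In cluster 11 it was detected in 94.8% of cells against 50.6% and had a log2 fold change of 0.90, the smallest of the 5 higher entries there. In cluster 7 the log2 fold change was 0.34, with 65.9% against 50.3%, and in cluster 3 it was -0.28, with 36.7% against 53%. The adjusted p was below 0.05 for the first of these entries only. Cluster 7 was the single cluster outside 11 where Ehd2 was higher, and Cav1, Cav2, Cavin1 and Cavin2 had no entry there. The 9 clusters without an Ehd2 entry had a combined level of 0.985 of that of all cells.

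Relative to all cells, and with the pseudocount added, the levels of Cav1 ran from 4.15 in cluster 11 through 1.60 in cluster 4, 1.32 in cluster 6 and 1.26 in cluster 8 to the clusters without an entry, and then down to clusters 5 (0.826), 10 (0.823), 1 (0.684) and 3 (0.624). For Cavin2 the order was cluster 11 (4.63), cluster 4 (1.79), cluster 8 (1.39), the clusters without an entry, cluster 10 (0.738) and cluster 3 (0.628). For Cavin1 it was cluster 11 (2.20), cluster 8 (1.28), cluster 6 (1.27), those without an entry and cluster 3 (0.724). Among the clusters with an entry, cluster 11 led all 3 orders and cluster 3 closed them. Clusters without an entry are placed by their combined value, and each alone could stand elsewhere. Cav2 had levels of 2.0 in cluster 11 and 1.25 in cluster 4, and Ehd2 of 1.84 in cluster 11, 1.25 in cluster 7 and 0.839 in cluster 3. Cavin3 ran from clusters 5 (1.28), 0 (1.24) and 7 (1.21) to clusters 11 (0.732), 2 (0.636) and 4 (0.584). With no spread over samples, whether neighbours in these orders differ, such as clusters 5 and 10 for Cav1 or 6 and 8 for Cavin1, cannot be told.

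Read by cluster, the genes formed a few combinations. In cluster 3, Cav1, Cavin1, Cavin2 and Ehd2 were listed as lower, 4 of the 6 genes, where 4.61% of all symbols were listed as lower. Of these 4, only Cavin2 had an adjusted p below 0.05, and the median log2 fold change of these 4 was -0.62 against 0.29 over all genes listed for that cluster. An estimated 10.4% of all cells were in cluster 3, where 7 adipocyte and 7 contractile genes were lower too. In cluster 8, Cav1, Cavin1 and Cavin2 were listed as higher, 3 of 6, where 9.45% of all symbols were higher, with a median of 0.38 against -0.37, but none of the 3 passed the adjusted p. In cluster 4, Cav1, Cav2 and Cavin2 were higher, 3 of 6 against 13.9% of all symbols, and detected in fewer cells each. Of 6 transcripts on a list of those often high in droplets of low RNA, 4 were higher in cluster 4 and 0 lower. These were AY036118, Gm42418, Gm26917 and the nuclear Neat1, at a median of 2.55 on the log2 scale. The nuclear Malat1, also on the list, had no entry there. The part of such transcripts in the caveola values was not tested.

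Each remaining cluster but cluster 9 listed 1 or 2 of the genes. Cluster 6 listed Cav1 and Cavin1 as higher, 2 of 6 against 18.1% of all symbols. Cluster 10 listed Cav1 and Cavin2 as lower, 2 of 6 against 12.2%. Of the 6 low-RNA transcripts, 3 were higher there and 1 lower, which was Neat1 at -0.81. Cluster 1 listed only Cav1, as lower, where 7.15% of all symbols were lower. Cluster 0 listed only Cavin3, as higher, where 12.5% of all symbols were higher.

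Among 1083 genes listed in at least 5 clusters, Cav1 had a pattern most like that of Fabp5, a fatty acid binding protein, of Arxes1, an adipocyte gene of the endoplasmic reticulum, and of Plin1, the coat protein of the lipid droplet. The Pearson correlations of their log2 fold changes over 12 clusters, with missing entries set to 0, were 0.956, 0.955 and 0.955. Cavin2 ranked 6th for Cav1 at 0.944. Cluster 11 added to this likeness: without it the correlations to Cav1 were 0.920 for Fabp5, 0.906 for Arxes1, 0.892 for Plin1 and 0.819 for Cavin2. For Cavin2, the most alike were Mgll, the lipase of monoglycerides, at 0.962, Cav1 at 0.944 and Ppa1, a pyrophosphatase, at 0.939.

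For Cavin3 the most alike were Pdia6, a disulfide isomerase of the endoplasmic reticulum, at 0.906, Srsf9, a splicing factor, at 0.893, and Akap12, a scaffold of protein kinase A, at 0.874. Without cluster 11 these were 0.908, 0.882 and 0.879, so the likeness to these 3 genes did not rest on that cluster. To Cav1 and Cavin2 the correlations of Cavin3 were -0.48 and -0.49, which put these genes at ranks 948 and 949. Ranked from their side among the same 1083 genes, Cavin3 was only at rank 548 for Cav1 and 573 for Cavin2, near the middle. All these values share the same cells and a common reference, and missing entries set to 0 pull genes of similar coverage together, so they describe these clusters only. Cav2, Cavin1 and Ehd2 were listed in fewer than 5 clusters and were not ranked.

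Of 13 genes whose proteins work with caveolae, 6 had entries, 9 higher and 8 lower over all clusters, where 47.1% of all entries were higher. Flna, the actin cross-linker filamin A that ties CAV1 to stress fibres, gave 11 of these 17 entries, 5 higher and 6 lower. It had a log2 fold change of -1.48 in cluster 11 and of 0.76 in cluster 0. The EHD2 relative Ehd1, an ATPase of endocytic recycling, was listed for cluster 11 only, at 0.67 with detection in 91.2% of cells against 53.6%. Abcc9 was listed at 0.38 in cluster 7. In cluster 11 the partners had 1 gene higher and 2 lower, against 25.6% and 38.1% of all symbols. The paralogues Cav3 and Cavin4, known from muscle, had no entry.

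Clathrin coat genes, which serve another route of uptake, were listed mostly as lower in cluster 11. Of 14, 7 had entries in the table. Of these 7, 1 was higher and 5 lower in cluster 11, against 25.6% and 38.1% of all symbols. Their median log2 value there was -0.32, against -0.30 for all genes listed there and 1.09 for the 6 caveola genes. The clathrin light chains Clta and Cltb had log2 fold changes of -0.33 and -0.53 there, and Ap2m1, a subunit of the clathrin adaptor, had -0.26, none with an adjusted p below 0.05. The 2 clathrin genes that passed there, named after their values had been seen, were Cltc, the heavy chain, at -0.30 and Picalm, an assembly protein, at 0.28. In cluster 4, where 39.1% of all symbols were lower, 5 of the 7 clathrin genes with entries were lower and 0 higher. Clta was the lowest at -0.74, with detection in 24.3% of cells against 94.1%. Over all clusters the clathrin list had 8 higher and 16 lower entries. Of 5 flotillin domain genes, which build flat membrane domains related to caveolae, 2 had entries: Flot1 was lower in cluster 11 at -0.73, with 30.2% of cells against 54%, and the mitochondrial relative Stoml2 was higher at 0.32. Flotillin genes had 3 higher and 4 lower entries in all.

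Among 15 genes of signalling and lipid uptake that have been linked to caveolae, 11 had entries, 30 higher and 43 lower, where 47.1% of all entries were higher. In cluster 11, 6 of those 11 were higher and 5 lower, against 25.6% and 38.1% of all symbols, with a median of 0.35. The higher ones included Cd36, the fatty acid translocase, at 2.74 with detection in 99.8% of cells, Plin1 at 2.58, and Lipe, the hormone-sensitive lipase, at 2.11. Cd36 had the direction of Cav1 in other clusters as well, at 2.24 in cluster 4, 1.64 in cluster 8 and -1.67 in cluster 3. Insr, the insulin receptor, was named after its values had been seen: it was higher in cluster 11 at 0.35, with 68.9% of cells against 24%, and in cluster 4 at 0.40, with 9.6% against 26.3%. Igf1r, the receptor of insulin-like growth factor 1 on the same list, went the other way in both clusters. It was at -0.70 in cluster 11, with 25% of cells against 54%, and at -0.45 in cluster 4, with 5.8% against 58.7%. Several of these genes, Cd36, Plin1 and Lipe among them, are also in the adipocyte list, so the 2 lists are not separate evidence.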

How the data were processed

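Single-cell RNA was measured in 8 samples, 2 for each genotype and day, grouped from their labels. As the methods of the study state, the authors aligned 3' reads to mm10 with Cell Ranger 6.0.0, log-normalized cells in Seurat to 10000 transcripts, clustered them and compared each cluster with all other cells by MAST. Doublet removal is not described, and doublets could not be looked for. The deposited fold changes are log2 values, detection was deposited as a fraction of cells inside and outside the cluster (printed as percents), and the deposited p-values treat cells as replicates and were used only to count entries with an adjusted p below 0.05. All 3 are pooled values of the authors' own comparison, without SD or n. The number of per-sample columns left unused is 0.

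Scripts ran in Python (3.11.15), with pandas (2.3.3) and numpy (2.4.6) for the tables and matplotlib (3.10.9) for the plots, and were tested on simulated data. Cluster shares were solved by least squares from the 10 genes listed in every cluster, using that detection over all cells is the share-weighted mean of the 2 fractions. For each member these overall detections spread over at most 0.0724 points between its entries. With the shares, levels relative to all cells were computed from the fold changes with a pseudocount of 1, Seurat's default and not stated for these data. Named genes were the 6 members, at most 3 of each pathway list by absolute log2 fold change and the 3 most alike by Pearson correlation of each member listed in at least 5 clusters. Insr, Igf1r, Cltc, Picalm, Pdgfrb, Fabp4, Scd1 and Lpl were added after their values had been seen. The members, lists and marker genes were chosen with earlier results of these data known. Alternatives changed the fold minimum (0.5 or 1), the adjusted p, the detection minimum (25%), the measure and the clusters used.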

Additional observations from a re-analysis of the deposited data

How the results depend on the processing

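No paired analysis was possible because all values are of pooled cells, and for the same reason no sample could be left out in turn. The alternative reading of the pseudocount was not run, since no caveola gene was listed in every cluster. With a log2 fold change of at least 0.5, 8 of the 17 higher and 6 of the 11 lower caveola entries were counted, with at least 1, 4 and 0, and with an adjusted p below 0.05, 8 and 4. The causes lie in the stricter minimums themselves. By difference of detection, the lowest cluster of Cav1 and of Cavin2 was 10 in place of 3. Of the 3 genes most like Cav1, 0 were shared when only clusters listing both genes were used, 1 without clusters 4 and 10 and 2 without cluster 11, which was tried after the data had been seen. For Cavin2 these were 1, 3 and 1, and for Cavin3 0, 2 and 2. With a log2 fold change of at least 0.5, the caveola partners had 4 higher entries and 5 lower, the flotillin genes 0 higher, and the clathrin genes 0 higher and 4 lower. With the adjusted p, the partners had 4 higher entries, the clathrin genes 1 higher and 8 lower, and the signalling and lipid uptake genes 21 lower. The cluster with the highest value of each gene was the same under each measure tried, and detection over all cells moved by less than the tolerance of 0.2 points. The depth and cell numbers reached are unknown here, so the precision of the values could not be given.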
